A study of Mus musculus with 9 samples.

Results

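The 10 genes described here build or run the sensory hair cell of the inner ear: Myo7a, Myo6, Cdh23, Pcdh15, Ush1c, Tmc1, Otof, Slc26a5, Pou4f3 and Strc. They were read through every probe set, a group of short array probes for 1 transcript, whose platform annotation gave exactly 1 gene symbol and that symbol was 1 of the 10. This gave 17 probe sets of 45037 on the array, for 10 of the 18193 genes named in this way. Pcdh15, Tmc1 and Myo6 had 3 each, Cdh23 had 2, and the other 6 genes had 1 each. Of the 17, 7 reached the filter set at the 40th percentile of mean signal. No probe set of the 10 genes passed the test threshold with calorie restriction or with age in the fit of all 9 arrays. Of all probe sets above the filter, only 0.0925% passed with restriction and 0% with age, so none among 7 is near that share.

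Hair cells turn sound into electrical signals. A bundle of actin-filled stereocilia stands on top of each cell, and tip links of cadherin 23 and protocadherin 15 join neighbouring stereocilia. Bending of the bundle pulls on the tip links and opens a transduction channel at their lower end. Inner hair cells then release glutamate onto the auditory nerve, while outer hair cells change length and amplify the vibration. Hair cells are a small minority of the cells in a whole cochlea, and lost mammalian cochlear hair cells are not replaced.

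The series compared whole-cochlea RNA of male C57BL/6 mice, each sample a pool of 4 cochleae from 2 mice. The calorie-restricted group (CR) was 15 months old and received 62 kcal per week from 2 months of age, a reduction of 26%. The middle-age control group (MC) was also 15 months old and the young control group (YC) was 4 months old, and both received 84 kcal per week. Each group had 3 arrays of 1 colour, and all mice were housed singly. C57BL/6 mice carry an allele of Cdh23 that predisposes to age-related hearing loss, and it is shared by all groups. In a whole organ, fewer hair cells and less RNA per hair cell cannot be told apart. The labels do not say more about how the pools of a group differed, so p-values measure the spread between these pools.

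Median signal split the arrays into classes. The 3 CR arrays and YC 1 had deposited medians from 526.8 to 626.6, and the 3 MC arrays, YC 2 and YC 3 had medians from 842.4 to 1103.9. After quantile normalization, pairs of arrays with low medians correlated at r = 0.883 to 0.911 over all probe sets, and pairs with high medians at 0.771 to 0.861. Every CR array was thus in the low class and every MC array in the high class, so that for this comparison class and diet can be separated only through the young controls. YC 1 was the only low array among them, so CR minus MC values with array class as a term rest on it. Log2 signals below are log2(signal + 16) after quantile normalization, and a fold change on this scale understates the change of dim probe sets.

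Upstream sequences are shown for Pcdh15 and Tmc1, whose 3 probe sets each were all lower in CR than in MC, and for Myo7a and Myo6, for which a probe set separated CR from another group without overlap. Each is the 250 bases before the RefSeq gene start in assembly GRCm38.p6, 5′ to 3′ on the strand of the gene, and capitals mark a match to a motif. Pcdh15 is at chr10:73821617-73821866 on the plus strand, and Tmc1 at chr19:20954203-20954452 on the minus strand. Myo7a is at chr7:98119494-98119743 on the minus strand (the more upstream of the starts listed for it), and Myo6 at chr9:80164784-80165033 on the plus strand.
Pcdh15: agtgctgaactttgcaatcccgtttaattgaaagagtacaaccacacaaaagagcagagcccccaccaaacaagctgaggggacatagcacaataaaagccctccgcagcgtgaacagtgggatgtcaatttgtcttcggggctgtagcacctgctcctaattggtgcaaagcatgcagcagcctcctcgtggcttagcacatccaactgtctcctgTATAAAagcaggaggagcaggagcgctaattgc
Tmc1: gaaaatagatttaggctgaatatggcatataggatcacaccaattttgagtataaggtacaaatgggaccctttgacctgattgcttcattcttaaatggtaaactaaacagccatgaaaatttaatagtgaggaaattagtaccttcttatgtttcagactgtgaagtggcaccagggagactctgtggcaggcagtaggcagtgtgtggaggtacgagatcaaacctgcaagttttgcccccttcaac
Myo7a: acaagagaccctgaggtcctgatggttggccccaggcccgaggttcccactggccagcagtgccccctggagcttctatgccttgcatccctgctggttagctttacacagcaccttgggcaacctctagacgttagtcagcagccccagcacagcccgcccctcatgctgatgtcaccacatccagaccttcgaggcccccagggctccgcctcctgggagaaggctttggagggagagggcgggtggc
Myo6: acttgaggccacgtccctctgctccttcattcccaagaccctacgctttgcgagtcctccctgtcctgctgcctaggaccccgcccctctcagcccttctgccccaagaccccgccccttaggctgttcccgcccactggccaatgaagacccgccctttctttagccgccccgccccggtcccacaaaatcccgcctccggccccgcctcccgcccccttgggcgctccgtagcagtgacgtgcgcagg

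The motifs searched on both strands were TATAAA, the core of a TATA box, CAGCTG, an E-box read by basic helix-loop-helix factors, and ATTAAT, letters within the sites of POU4-class factors. They do not overlap each other in these windows. Pcdh15 held TATAAA from 33 to 28 bases before its start, and 12.4% of 32851 mouse promoter windows of this length held it on either strand. The other sequences shown held none of the motifs, and CAGCTG and ATTAAT were present in 13% and 4.39% of all windows. GC content was 50.4% for Pcdh15 and 41.2% for Tmc1, against 63.2% for Myo7a and 67.6% for Myo6, and the median over all windows was 52.4%. A match describes letters in a window and is not evidence of binding.

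Most of the hair cell probe sets were dim. Over the 9 arrays, 10 of the 17 lay below the 40th percentile of mean log2 signal (a log2 signal of 8.95), where by construction 60% of all probe sets lie above it. The 7 above it represented 6 genes: Myo7a, Myo6 (2 of 3 probe sets), Pcdh15 (1 of 3), Ush1c, Tmc1 (1 of 3) and Otof. Neither probe set of Cdh23 and none for Slc26a5, Pou4f3 or Strc reached it. The nearest below was Tmc1 1421626_at with a mean log2 signal of 8.74, and the nearest above was Pcdh15 1421503_at with 9.46. None of the 17 was among the brightest 20% of probe sets, and the highest stood at percentile 73.5. Signals of different probe sets depend on their probes and do not rank the genes by RNA amount. Dim probe sets are also noisier: the median within-group SD was 1.02 log2 units between percentiles 20 and 40, and 0.52 between percentiles 60 and 80.

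**Figure D1:**
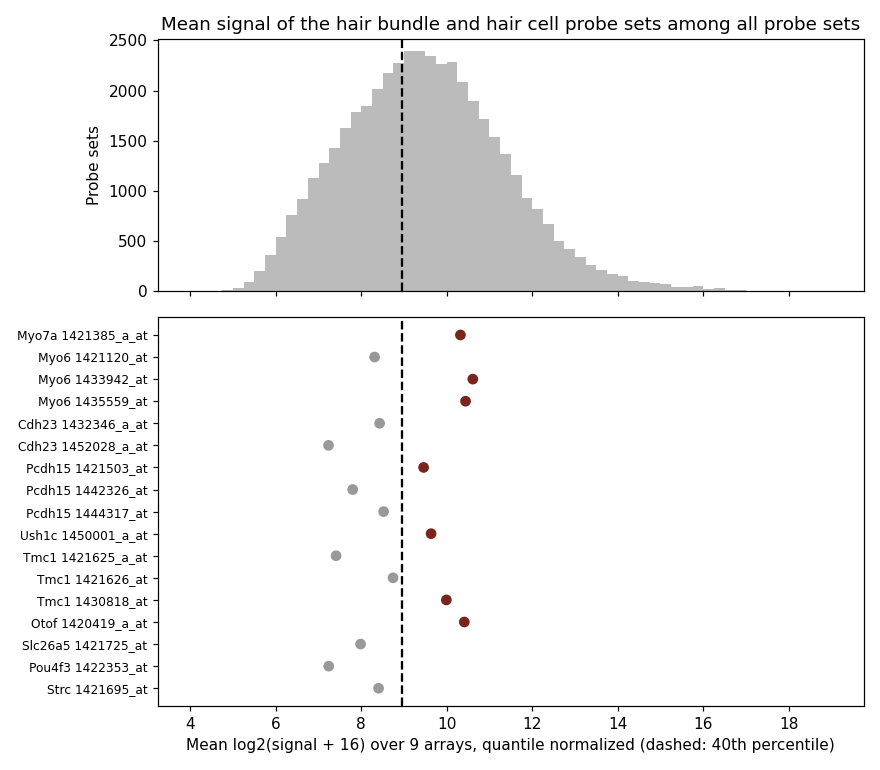
Upper panel: number of probe sets (y axis) by mean log2(signal + 16) over the 9 arrays (x axis). Lower panel: the 17 hair bundle and hair cell probe sets on the same axis, dark red where they are at or above the 40th percentile (dashed line, 8.95) and grey below it. The 7 dark points lie between 9.46 and 10.61, and the 10 grey ones between 7.23 and 8.74.

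Of the myosin motors, Myo7a and 2 of 3 Myo6 probe sets lay above the filter. Myo7a encodes myosin VIIa, an unconventional myosin that sits in stereocilia and at the upper tip link anchor, and had 1 probe set (1421385_a_at). Its log2 signals were 10.53, 10.79 and 10.49 in CR, 9.87, 10.47 and 8.98 in MC, and 10.88, 10.51 and 10.35 in YC. All CR arrays lay above all MC arrays, narrowly for CR 3 (10.49) over MC 2 (10.47), and MC 3 was the lowest array. Means were 10.60 ± 0.16 in CR, 9.77 ± 0.75 in MC and 10.58 ± 0.27 in YC (SD, n = 3 each). The log2 change was 0.83 ± 0.40 (SE) for CR minus MC, with a 95% interval from -0.06 to 1.72 (limma, adjusted p = 0.292). For MC minus YC it was -0.81 ± 0.40 with an interval from -1.70 to 0.08 (limma, adjusted p = 1). MC 3 weighed on both: without it they were 0.45 and -0.43.

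Within array classes, the Myo7a difference of MC from YC 2 and YC 3 was -0.66, and that of CR from YC 1 was -0.27. With array class as a term the CR minus MC value was 0.39, with an interval from -1.20 to 1.98. Groups without overlap were common on these arrays. CR lay wholly above MC for 15.9% of all probe sets and wholly below for 15.8%, so a separation such as that of Myo7a is not particular to it.

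Myo6 encodes myosin VI, which moves toward the minus end of actin filaments and anchors the stereocilia at their base. It is also made in many other tissues, brain included. On probe set 1433942_at the log2 signals were 11.44, 10.99 and 10.99 in CR, 9.77, 10.97 and 11.05 in MC, and 10.93, 9.34 and 9.98 in YC. On probe set 1435559_at they were 10.70, 11.24 and 11.14 in CR, 10.17, 10.53 and 10.86 in MC, and 10.43, 9.44 and 9.47 in YC. In both, CR had the highest mean and YC the lowest, CR lay wholly above YC, and MC overlapped the other groups. The dim probe set 1421120_at gave another order, with means of 8.12 ± 0.30 in CR, 7.96 ± 1.33 in MC and 8.85 ± 0.92 in YC (SD, n = 3 each).

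For CR minus YC, which joins the effects of age and diet, Myo6 had a log2 change of 1.24 ± 0.37 (SE) on 1435559_at, with an interval from 0.42 to 2.06 (limma, unadjusted p = 0.00675, adjusted p = 0.457). On 1433942_at it was 1.05 ± 0.47 (limma, unadjusted p = 0.046, adjusted p = 0.462). In this comparison these were the smallest p-values of the members, and CR lay wholly above YC for 9.32% of all probe sets. The CR minus MC values were 0.50 ± 0.37 and 0.54 ± 0.47 (limma, adjusted p = 0.469 and 0.53), and the MC minus YC values 0.74 ± 0.37 and 0.51 ± 0.47 (limma, adjusted p = 1 for each), in the same probe set order. The steps differed between array classes. Within the low class CR exceeded YC 1 by 0.59 on 1435559_at and 0.21 on 1433942_at, and within the high class MC exceeded YC 2 and YC 3 by 1.07 and 0.93. With array class as a term both CR minus MC values turned negative, at -0.47 and -0.73.

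**Figure D2:**
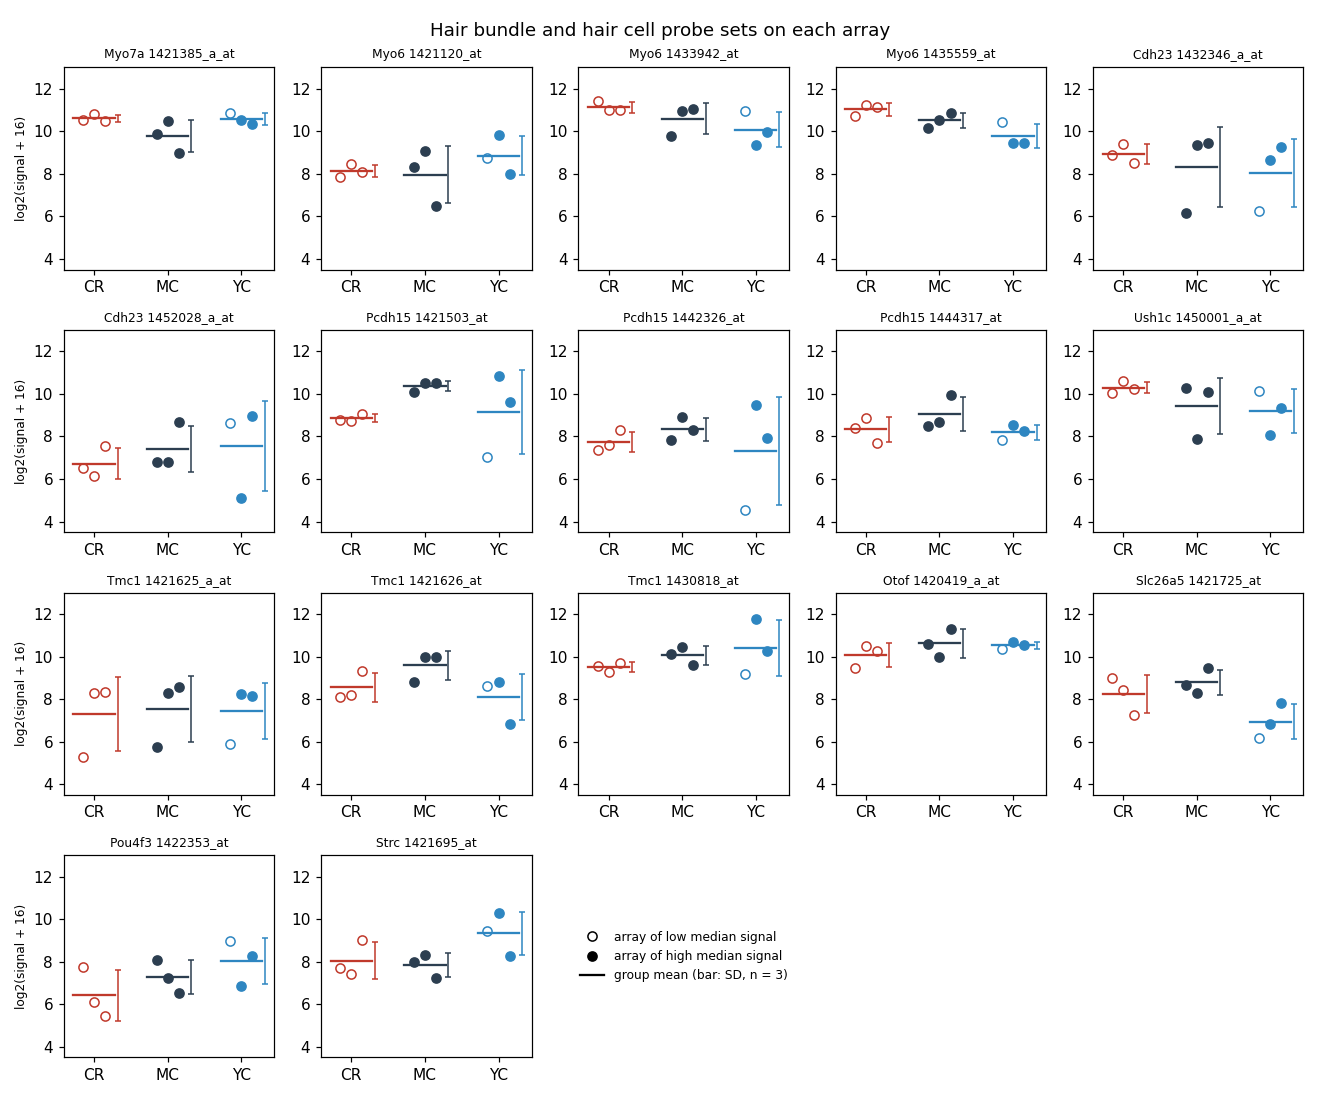
Log2(signal + 16) after quantile normalization (y axis) on each array for the 17 probe sets, with CR, MC and YC from left to right. Open points are arrays of low median signal and filled points arrays of high median signal, horizontal lines are group means and bars are SD (n = 3). On Pcdh15 1421503_at every open point lies below every filled point, from 7.01 to 9.07 against 9.60 to 10.86.

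Of the tip link genes, Pcdh15 separated by array class and Cdh23 lay below the filter. Pcdh15 encodes protocadherin 15, the lower end of the tip link. On the probe set above the filter, 1421503_at, the deposited signals were 270.1, 324.1 and 429.2 in CR, 1248, 1484.5 and 1619.6 in MC, and 65.6, 2097.7 and 850.5 in YC. The matching log2 signals were 8.76, 8.73 and 9.07 in CR, 10.08, 10.51 and 10.51 in MC, and 7.01, 10.86 and 9.60 in YC. All CR arrays lay below all MC arrays, and YC 1 lay below every other array. The log2 change for CR minus MC was -1.51 ± 0.79 (SE), a mean 2.85-fold lower in CR, with an interval from -3.26 to 0.23 (limma, adjusted p = 0.321). For MC minus YC it was 1.21 ± 0.79 with an interval from -0.53 to 2.95 (limma, adjusted p = 1). It was 0.13 without YC 1 and 2.09 without YC 2.

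In a fit of the CR and MC arrays alone, which leaves out the widely spread young controls, Pcdh15 1421503_at passed the threshold (log2 change -1.51 ± 0.34 SE, limma adjusted p = 0.0383), in the company of 6.83% of all probe sets tested. All 4 arrays of low median signal lay below all 5 of high median signal, as for 8.15% of all probe sets, and this was the 1 member probe set that separated the classes. Within the low class CR exceeded YC 1 by 1.84, within the high class MC exceeded YC 2 and YC 3 by 0.14, and with array class as a term CR minus MC turned to 1.70, with an interval from -0.18 to 3.59. The part of array class in this difference cannot be told apart from diet within these groups. The other Pcdh15 probe sets also had lower means in CR than in MC, by 0.60 on 1442326_at and 0.70 on 1444317_at, and in all 3 the MC mean exceeded the YC mean. With array class as a term, CR minus MC on 1442326_at turned to 3.58, with an interval from 0.85 to 6.32, and on 1444317_at it was -0.14. On 1442326_at, YC 1 stood far below the rest with a log2 signal of 4.52, a deposited signal of 3.4. The value of 3.58 rests on this array and does not resolve a direction.

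Cdh23 encodes cadherin 23, the upper end of the tip link and the gene of the C57BL/6 hearing loss allele. Its probe set 1432346_a_at had log2 signals of 8.88, 9.40 and 8.50 in CR, 6.16, 9.35 and 9.44 in MC, and 6.23, 8.65 and 9.25 in YC. MC 1 and YC 1 lay over 2 log2 units below the other arrays. Probe set 1452028_a_at had means of 6.73 ± 0.73 in CR, 7.42 ± 1.08 in MC and 7.56 ± 2.12 in YC (SD, n = 3 each). The 2 probe sets had differences of opposite sign in each comparison, 0.61 and -0.69 for CR minus MC and 0.28 and -0.15 for MC minus YC. Both lay below the signal filter, and in a fit over all 45037 probe sets their 95% intervals for MC minus YC spanned -1.90 to 2.45 and -2.33 to 2.04 and the direction was not resolved.

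Ush1c encodes harmonin, the scaffold that holds the upper end of the tip link. Its log2 signals were 10.05, 10.59 and 10.24 in CR, 10.27, 7.89 and 10.11 in MC, and 10.13, 8.07 and 9.35 in YC. MC 2 and YC 2 were low, and the other 7 arrays lay between 9.35 and 10.59. The log2 change was 0.88 ± 0.69 (SE) for CR minus MC (limma, adjusted p = 0.496) and 0.24 ± 0.69 for MC minus YC (limma, adjusted p = 1). Without MC 2 they were 0.11 and 1.02, and without YC 2 the MC minus YC value was -0.31.

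Tmc1 encodes a pore subunit of the transduction channel. On 1430818_at, the probe set above the filter, the log2 signals were 9.57, 9.26 and 9.71 in CR, 10.14, 10.47 and 9.58 in MC, and 9.16, 11.75 and 10.28 in YC. YC 2 was the highest array and YC 1 the lowest, and all groups overlapped. The log2 change was -0.55 ± 0.58 (SE) for CR minus MC (limma, adjusted p = 0.607) and -0.33 ± 0.58 for MC minus YC (limma, adjusted p = 1). On 1421626_at, the log2 signals were 8.10, 8.21 and 9.33 in CR, 8.78, 9.98 and 9.99 in MC, and 8.61, 8.82 and 6.85 in YC. The MC mean was highest, with a log2 change of -1.04 for CR minus MC and 1.49 for MC minus YC, and in the fit over all 45037 probe sets the interval for MC minus YC ran from -0.07 to 3.05 (limma, adjusted p = 0.995). The 3 probe sets thus had lower means in CR than in MC, by 0.24 to 1.04, while for MC minus YC 2 were positive and 1 negative. With array class as a term, CR minus MC was 1.3 on 1430818_at, 2.04 on 1421625_a_at and -1.82 on 1421626_at.

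Strc encodes stereocilin, which links the tops of outer hair cell stereocilia to each other and to the tectorial membrane. Its log2 signals were 7.71, 7.40 and 9.03 in CR, 7.97, 8.31 and 7.24 in MC, and 9.45, 10.27 and 8.26 in YC. YC had the highest mean, and MC overlapped it by MC 2 (8.31) over YC 3 (8.26). The log2 change for MC minus YC was -1.48 ± 0.74 (SE), with an interval from -3.10 to 0.13 (limma over all probe sets, adjusted p = 0.995). It was negative in each alternative run, from -2.03 to -0.51, and -1.42 within the arrays of high median signal. CR was lower than YC by a similar step, with a log2 change of -1.28 ± 0.74 (adjusted p = 0.542), and CR and MC differed by 0.21.

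Slc26a5 encodes prestin, the motor protein of outer hair cell length change. Its deposited signals were 326.6, 263.1 and 126.4 in CR, 491.3, 353.8 and 897.7 in MC, and 30.8, 160.6 and 240.8 in YC. The log2 signals were 9, 8.42 and 7.26 in CR, 8.64, 8.28 and 9.44 in MC, and 6.19, 6.83 and 7.80 in YC. All MC arrays lay above all YC arrays, and CR 3 lay among the young controls. The log2 change for MC minus YC was 1.85 ± 0.74 (SE), a mean 3.6-fold higher in MC, with an interval from 0.24 to 3.46 (limma over all probe sets, unadjusted p = 0.0279, adjusted p = 0.995). It was the only member with an unadjusted p under 0.05 in this comparison, where 4.34% of all probe sets had one. MC lay wholly above YC for 3.6% of all probe sets. The value stayed positive in each alternative run, from 1.06 to 2.28, and was 1.47 within the arrays of high median signal. The mean signal of this probe set was at percentile 22.3, below the filter.

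Pou4f3, the POU-domain transcription factor that hair cells need to survive, was at percentile 11.8. Its log2 signals were 7.74, 6.09 and 5.43 in CR, 8.10, 7.23 and 6.52 in MC, and 8.96, 6.84 and 8.26 in YC. The means stood lowest in CR and highest in YC, and each pair of groups overlapped. The log2 change for CR minus YC was -1.597 ± 0.83 (SE), with an interval from -3.40 to 0.21 (limma over all probe sets, adjusted p = 0.516).

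Otof encodes otoferlin, the calcium sensor of transmitter release at the inner hair cell ribbon synapse. Its log2 signals were 9.45, 10.49 and 10.27 in CR, 10.57, 9.96 and 11.31 in MC, and 10.35, 10.69 and 10.56 in YC. CR 1 was the lowest and MC 3 the highest array, and the YC arrays stood close together with an SD of 0.17. For MC minus YC the log2 change was 0.08 ± 0.42 (SE), with an interval from -0.838 to 0.997 (limma, adjusted p = 1). For CR minus MC it was -0.54 ± 0.42, with an interval from -1.46 to 0.38 (limma, adjusted p = 0.484).

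**Figure D3:**
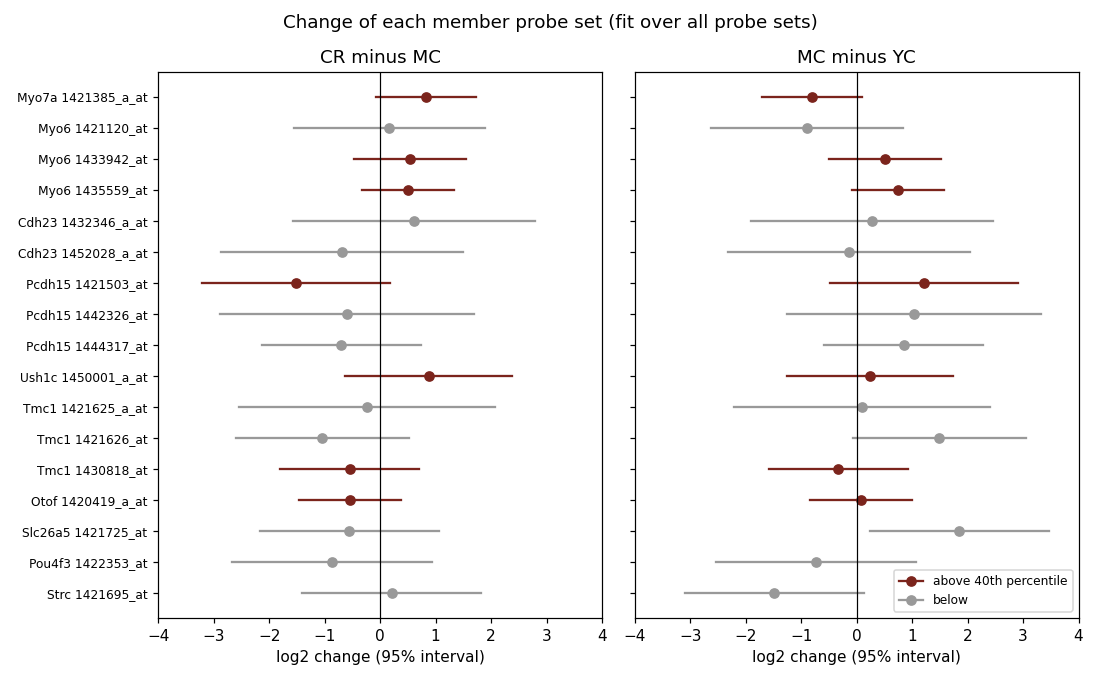
Log2 change (x axis, point) with its 95% interval (line) for each of the 17 probe sets, CR minus MC on the left and MC minus YC on the right, from the limma fit over all 45037 probe sets. Dark red marks probe sets above the 40th percentile and grey those below it. Of the 34 intervals only that of Slc26a5 for MC minus YC, from 0.24 to 3.46, lies on 1 side of 0.

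Over all 17 probe sets the signs were mixed. For CR minus MC, 7 had a positive and 10 a negative log2 change, with a median of -0.54, against 50.8% positive and a median of 0.02 over all probe sets. Of the 7 above the filter, 4 were positive and 3 negative, with a median of 0.50, against 54.7% positive and 0.08 for all above it. By the brightest probe set of each gene, 5 were positive and 5 negative, with a median of -0.17. For MC minus YC, 11 of the 17 were positive and 6 negative, with a median of 0.24, against 51.3% positive and a median of 0.02. Counted by gene in the same way, 6 were positive and 4 negative, with a median of 0.16. For CR minus YC, 9 were positive and 8 negative, with a median of 0.02, against 50.9% positive and a median of 0.015. Counted by gene, 5 were positive and 5 negative, with a median of -0.14. None of the 7 probe sets above the filter passed an adjusted p of 0.05 in limma for CR minus MC, where 0.0925% of 27022 did, and none had an unadjusted p under 0.05, where 18.5% did. None passed for MC minus YC either, where 0% passed and 3.39% had an unadjusted p under 0.05. For CR minus YC again none passed, as for 0% of those tested, and the Myo6 pair had an unadjusted p under 0.05, as did 10.8% of those tested. In the fit over all 45037 again no member passed, where 0.0622% passed for CR minus MC and 0% for the other comparisons. An unadjusted p under 0.05 there belonged to 0 members for CR minus MC (16.6% of all), 1 for MC minus YC (4.34%) and 2 for CR minus YC (9.95%). Groups did not overlap for 1 member higher and 1 lower in CR than in MC, 1 higher and 0 lower in MC than in YC (3.55% of all were lower), and 2 higher and 0 lower in CR than in YC (8.73% of all were lower). A moderated F test over the 3 groups called none of the 7 and 0% of those tested, with the smallest member p for Myo6 1435559_at (unadjusted p = 0.0209, adjusted p = 0.372 in limma). Both comparisons share the MC arrays, so a member high in MC tends to be positive with age and negative with restriction. Probe sets of a gene often disagreed: for MC minus YC those of Myo6, Cdh23 and Tmc1 had both signs, and for CR minus MC those of Cdh23 did.

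Other genes of the hair bundle showed no called change. Of 26 measured genes of that list, 16 lay above the filter, and 0 passed in either comparison (limma). Of all probe sets above the filter, 0.0925% passed for CR minus MC and 0% for MC minus YC, so 0 of 16 is near that share. For CR minus MC, 9 of the 16 were higher and 7 lower, with a median log2 change of 0.02, against 54.7% higher and a median of 0.08 over all probe sets above the filter, and 2 of the 16 had an unadjusted p under 0.05, both lower, where 18.5% of all probe sets above the filter had one. These were Whrn, which encodes whirlin, a scaffold of stereocilia tips (-1.72 ± 0.47 SE, limma adjusted p = 0.163), and Eps8l2, an actin regulator of stereocilia (-0.85 ± 0.35, adjusted p = 0.238). For MC minus YC, 10 were higher and 6 lower with a median of 0.04, against 52.3% higher and a median of 0.02, none with an unadjusted p under 0.05. The smallest p-values of the 16 belonged to Otoa, otoancorin of the tectorial membrane attachment (0.95 ± 0.68), and Pls3, the actin bundler plastin 3 (-0.26 ± 0.21), each with an adjusted p of 1. Over all 26 genes, CR lay wholly above MC for 4 and wholly below for 8, against 15.9% and 15.8% of all probe sets. MC lay wholly above YC for 1 and below for 1, against 3.6% and 3.55%. Below the filter, in the fit over all 45037 probe sets, the smallest p-value for CR minus MC belonged to Tmie (-3.29, limma adjusted p = 0.15). For MC minus YC it belonged to Lhfpl5 (-2.17, limma adjusted p = 0.995), whose CR minus MC value was 2.03 (adjusted p = 0.198).

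Among hair cell synapse, channel and transcription factor genes, 14 of 22 measured lay above the filter and 0 passed in either comparison. The shares over all probe sets above the filter were 0.0925% for CR minus MC and 0% for MC minus YC. For CR minus MC, 10 were higher and 4 lower, with a median of 0.60, against 54.7% higher and a median of 0.08 over all probe sets above the filter. An unadjusted p under 0.05 belonged to 4 higher and 1 lower of the 14, and to 18.5% of all probe sets above the filter. The smallest p-values belonged to Calb2, which encodes the calcium buffer calretinin of hair cells and many neurons (1.58 ± 0.34 SE, limma adjusted p = 0.128), and Rbm24, an RNA-binding protein of hair cells and muscle (-1.19 ± 0.29, adjusted p = 0.146). When the probe sets for each gene were averaged in place of taking the brightest, the median over all 22 genes was 0.37, against 0.60. For MC minus YC, 5 were higher and 9 lower with a median of -0.12, against 52.3% higher and a median of 0.02. Here the smallest p-values belonged to Myh9, a non-muscle myosin of most cells (-0.61 ± 0.28), and Rasd2, a small GTPase (-0.76 ± 0.36), each with an adjusted p of 1.

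Of the marker lists of other cell types, skeletal muscle had genes past the threshold between CR and MC, and 0 genes passed in the supporting cell, brain, neuron and blood lists (limma). Of all probe sets above the filter 0.0925% passed, and with array class as a term 0 did. Over all probe sets 50.8% were higher in CR than in MC, with a median log2 change of 0.02. Cochlear supporting cell, ligament and stria markers were higher in CR for 20 of 24 measured genes, with a median log2 change of 0.98, among them Otos (1.04 ± 0.25 SE) and Coch (0.98 ± 0.26), both at percentile 99.2 of mean signal. Their summed deposited signal was 246750 to 299550 in CR, 125720 to 137570 in MC and 103670 to 211910 in YC. The highest YC sum was that of YC 1, the young array of the low class. Cerebellum and brain markers were higher in CR for 14 of 17 genes, with a median of 1.11, including Zic1 (1.55 ± 0.47) and Calb1 (0.97 ± 0.23), and their sum was 53402 to 115560 in CR, 25281 to 32032 in MC and 27466 to 45006 in YC, with YC 1 again the highest of YC. Skeletal muscle markers were lower for 22 of 22 genes, with a median of -2.23, and 14 passed the threshold, including Tnnc2 (-1.81 ± 0.24, limma adjusted p = 0.0357) and Acta1 (-1.87 ± 0.25, adjusted p = 0.0357). Their sum was 368730 to 570320 in CR, 1224500 to 1921600 in MC and 805490 to 1905100 in YC, where YC 1 lay between YC 2 and YC 3. Neuron markers were higher in CR for 11 of 18 genes (median 0.03), with sums of 185530 to 204320 in CR, 109980 to 196070 in MC and 91073 to 128950 in YC, so that CR and MC overlapped, and their brightest genes, Nefl and Snap25, had log2 changes of -0.04 ± 0.22 and 1.73 ± 0.32. Blood and marrow markers were lower for 10 of 15 (median -0.22), with overlapping sums of 249380 to 377200 in CR, 254860 to 459130 in MC and 190090 to 561930 in YC, and their brightest genes, Ltf and S100a8, had log2 changes of 0.11 ± 0.29 and -0.52 ± 0.25. CR and MC also differed in array class, and its part in these list differences was not tested. The part of these tissue differences in the hair cell values was not tested.

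**Figure D4:**
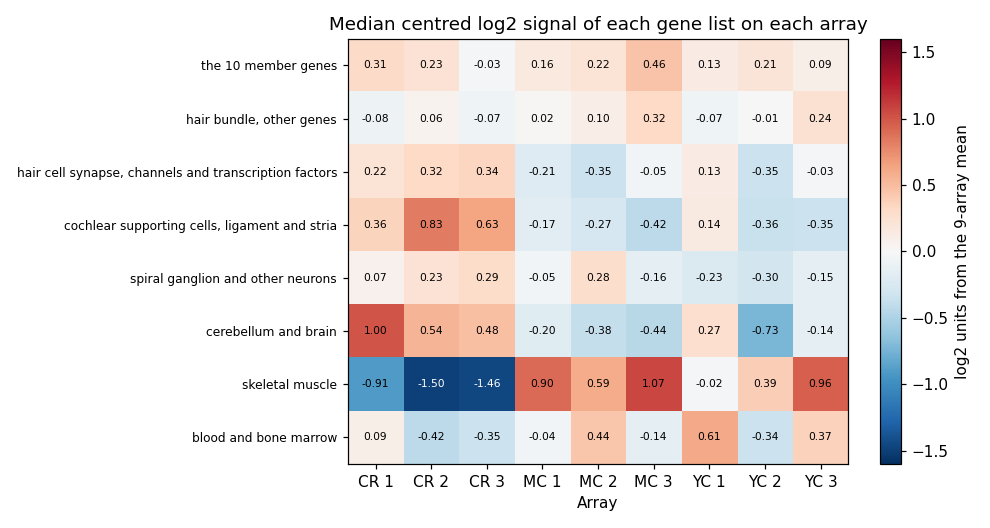
Median over each gene list of the log2 signal, centred on each gene's mean over the 9 arrays (colour and number), for each array (columns, CR, MC and YC from left to right). The 10 member genes range from -0.03 to 0.46, and skeletal muscle ranges from -1.50 to 1.07.

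The median centred log2 signal over the 10 member genes, each by its brightest probe set, was 0.31, 0.23 and -0.03 in CR, 0.16, 0.22 and 0.46 in MC, and 0.13, 0.21 and 0.09 in YC. Over all 17 member probe sets it was -0.42, 0.13 and 0.17 in CR, 0.02, 0.29 and 0.47 in MC, and -0.06, 0.20 and 0.03 in YC. CR 1 was high by the first measure and the lowest array by the second, and members of opposite sign cancel in both.

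The named genes whose pattern over the 9 arrays lay closest to Myo7a, by the root mean square difference of centred log2 signals, were Inhbb (0.17), Kctd5 (0.17) and Cldn10 (0.18), where the median over all named probe sets above the filter was 0.72. Closest to Myo6 1433942_at were Cad (0.16), Pogk (0.18) and Orc5 (0.21), with a median of 0.79. These genes were picked as the smallest differences among all named probe sets of other genes above the filter. They therefore lie below the medians by construction, and whether they are closer than chance gives was not tested.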

How the data were processed

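RNA of 9 pooled cochlea samples was hybridised to 1-colour arrays after TRIzol extraction and biotin labelling of cRNA, per the labels' protocols. GCOS 1.3 is named in the submitters' processing notes, but the algorithm, scaling target and detection calls are not stated there. As deposited, the numbers are signal intensity on a linear scale, 1 per probe set, and each array's mean after trimming both ends lay between 1493.6 and 1496.4.

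The signals were then put on a log2(signal + 16) scale and the arrays quantile normalized. The 27022 of 45037 probe sets that reached the 40th percentile of their mean over the 9 arrays were fitted in limma 3.58.1 under R 4.3.3 (lmFit, eBayes with a variance trend) with the means of CR, MC and YC. The threshold was a p of 0.05 after Benjamini-Hochberg adjustment. Probe sets below the filter were read from the same fit over all 45037, which is named where used, and intervals are 95%. The script was tested on simulated data. The number of arrays limits the precision. Symbols were updated through gene IDs to the RefSeq table of GRCm38.p6 (34741 of 34945 single-gene probe sets), and 17 member probe sets matched before and after. RefSeq upstream sequences were read for 8 of the 10 genes. A chromosome was left out of that reading, so the count is not what the reference holds. List genes are represented by their brightest probe set.

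Members and lists were chosen with earlier results of these data known. Named genes were all members, the 2 smallest p above the filter per pathway list and comparison, and the smallest p below it in the hair bundle list. The 2 brightest genes per cell type list and the 3 nearest patterns to Myo7a and to the brightest member were also named. Alternatives covered pseudocounts of 1 and 64, other filters and normalizations, variance and array weighting, the groups in the fit, the replicate number, array class and single arrays.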

Additional observations from a re-analysis of the deposited data

How the results depend on the processing

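In the alternatives of filter, scaling, model and arrays left out, no member probe set was called in any comparison or in the F test, except 1 (Pcdh15 1421503_at) for CR minus MC in the fit of those groups alone. The number above the percentile was 7 in the alternatives of scale and 5 at the 60th percentile. Replicate numbers gave no clear pairing of the arrays. Deviations of same-numbered arrays correlated above 0.1 in 2 of 9 pairs, from -0.29 to 0.27, and MC 3 with YC 2, of different numbers, at 0.275. With 3 arrays a group this check cannot exclude a pairing. With the replicate block 0 member probe sets were called. All probe sets called for CR minus MC numbered 25, against 1846 in the fit of those groups alone, 3397 with array weights (whose iteration stopped before its tolerance), 7 on the deposited signals, 0 with the replicate block, array class, array median, median centring or no trend, and 0 to 1147 (without YC 2) with 1 array left out. For CR minus YC, 328 were called without YC 1 and 0 otherwise.

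The sign changes that follow are of probe sets above the filter. None of these values was called in the fit of all 9 arrays, and their cause was not tested. The CR minus MC and CR minus YC values with array class as a term rest on YC 1. With array class as a term, CR minus MC became -0.73 for Myo6 1433942_at, -0.47 for Myo6 1435559_at, 1.71 for Pcdh15 1421503_at, 1.301 for Tmc1 1430818_at and -0.54 for Ush1c. CR minus YC became -0.27 for Myo7a, 1.84 for Pcdh15 and 0.35 for Tmc1, and MC minus YC -0.012 for Otof, as within the high-median arrays (-0.012). With the array median as a covariate, CR minus MC became -0.39 for Myo6 1433942_at, 0.60 for Pcdh15 and 0.70 for Tmc1, CR minus YC -0.22 for Myo7a and 1.08 for Pcdh15, and MC minus YC -0.078 for Otof. With array weights, CR minus YC became -0.057 for Myo7a and 0.29 for Pcdh15, and MC minus YC -0.011 for Otof, 0.11 for Tmc1 and -0.087 for Ush1c. With arrays centred on their median MC minus YC became -0.056 for Otof, and on the deposited signals CR minus YC became -0.19 for Myo7a and MC minus YC 0.083 for Tmc1. Leaving out 1 array gave ranges of -0.094 to 0.16 for Myo7a and -1.34 to 0.55 for Pcdh15 (CR minus YC), and of -0.28 to 0.41 for Otof, -0.92 to 0.35 for Tmc1 and -0.31 to 1.02 for Ush1c (MC minus YC). Of 30 values of the 10 probe sets below the filter, 16 changed sign in at least 1 alternative, among them CR minus MC for Pcdh15 1442326_at (-1.21 to 3.58), Tmc1 1421625_a_at (-1.13 to 2.04) and Cdh23 1432346_a_at (-0.47 to 3.33). Levels were not ranked between probe sets, so that alternative was not run.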

Other observations

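A pattern chosen after its values were seen concerns Tmc1 1421625_a_at. Its log2 signals fell into separate ranges by label number rather than by group: the arrays numbered 1 had 5.27 in CR, 5.73 in MC and 5.91 in YC, and the other 6 arrays lay between 8.15 and 8.56. The deposited signals were 10.5, 51.6 and 23.4 in the arrays numbered 1, in the same order, and 239.3 to 478.3 in the others. All arrays numbered 1 lay below all others for 1.03% of 45037 probe sets, but with a gap of over 2 log2 units, as here, for 4 of them. For the arrays numbered 2 and 3 the shares were 0.75% and 0.637%, with such a gap for 0 and 1 probe sets. The labels give no meaning to the number beyond the replicate, and the other Tmc1 probe sets did not show this split.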
